A study of Mus musculus with 3 samples.

Results

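Freshly isolated primary mouse hepatocytes were compared with primary fibroblasts grown from mouse spleens remodelled with SiO2, on 2 of the 3 one-colour Cy3 arrays of a study that turns such fibroblasts into hepatocyte-like cells. Each array held RNA pooled from 5 samples, so there was 1 array a side and no test was possible. Fibroblasts in the study were given LV-NC or LV-3TF and cultured for 14 days before the fibroblast and hepatocyte-like pools were taken; which of them the fibroblast pool had been given is not stated in the sources used here. The hepatocytes served as the positive control and went straight to RNA after isolation, so cell type and culture cannot be told apart. All samples are labelled female; strain and age are not given in the sources used here. The extraction kit was one for blood, with red cell lysis and globin removal in its protocol. The 2 arrays were chosen by their sample titles, and 17688 of the 20659 measured genes could be compared between them.

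Hepatocytes are the epithelial cells of the liver. They secrete most plasma proteins, make bile acids, detoxify drugs and ammonia, and store and release glucose and lipid. A network of transcription factors that includes HNF4A, FOXA and C/EBP proteins maintains this state. Fibroblasts of the spleen make the collagen scaffold of the organ, contract through smooth muscle actin when activated, and carry HOX and other positional factors of their origin.

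The labelled sex did not match the hepatocyte array. Eif2s3y, a Y-linked translation factor subunit, was at -8.22 in the fibroblasts, not well above background, and 1.64 in the hepatocytes, at least 246-fold higher. The Y-linked RNA helicase gene Ddx3y was at -8.40 in the fibroblasts, not well above background, and -0.26 in the hepatocytes, at least 65.8-fold higher. Xist, the RNA that coats the inactive X chromosome of females, was at -2.44 in the fibroblasts and -6.92 in the hepatocytes, not well above background, at least 21.9-fold lower. Uty and Kdm5d, also Y-linked, were above background in the hepatocytes alone, at -3.57 and -5.94, while Usp9y and Zfy1 were not above background on either array. The pool of hepatocytes thus read Y-linked genes and no Xist, and the fibroblast pool Xist and none of these 6 Y-linked genes, as the plot of Y-linked genes and Xist shows. The probe for Sry was above background on both arrays (-5.97 and -4.59) and its difference reverses under normexp background correction, so it is not counted here.

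**Figure D1:**
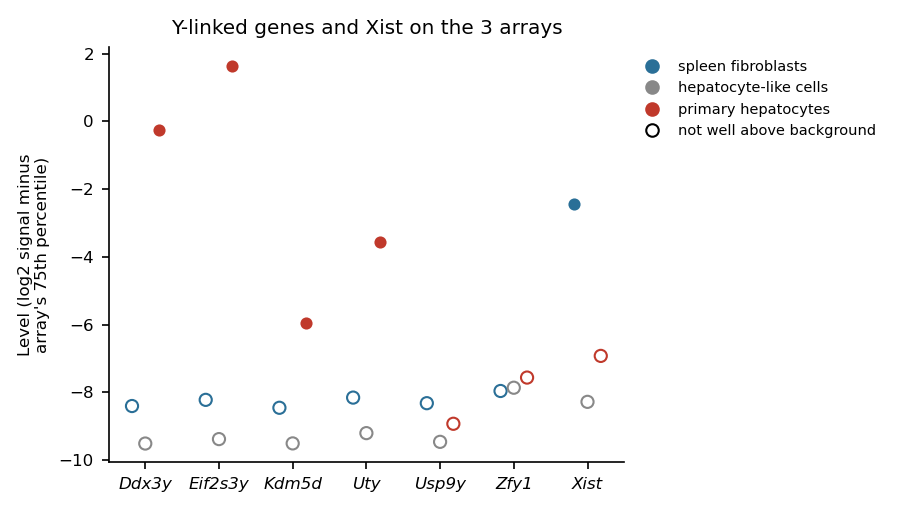
Level of 6 Y-linked genes and Xist on the 3 arrays, as log2 signal minus the array's 75th percentile; filled points are well above background and open points are not. Ddx3y, Eif2s3y, Kdm5d and Uty are filled for the hepatocytes alone and Xist for the fibroblasts alone; the hepatocyte-like cells are open throughout.

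Both labels held for cell type by their defining markers, and both pools also held transcripts of other cells. Alb, the main protein of plasma, was at -5.20 in the fibroblasts and 6.67 in the hepatocytes, 3754-fold higher, and the nuclear receptor gene Hnf4a was at -5.62 in the fibroblasts and 6.0 in the hepatocytes, 3133-fold higher. Col1a2, a chain of type I collagen, was at 6.64 in the fibroblasts and 2.10 in the hepatocytes, 23.2-fold lower. The mesenchymal surface gene Thy1 was at 6.84 in the fibroblasts and 0.72 in the hepatocytes, 69.7-fold lower. Macrophage genes were bright in both pools, and pancreatic enzyme genes were bright in the hepatocyte pool, as described below. In pooled RNA, fewer cells of a type and less RNA per cell cannot be told apart.

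Levels are log2 signals minus the array's 75th percentile, so that level 0 is that percentile, and folds are hepatocytes over fibroblasts. A gene not well above background on 1 array has only a bound there and is given as "at least" N-fold. The 75th percentile was 544 intensity units on the fibroblast array and 2081 on the hepatocyte array, and 67.0% and 79.4% of probes were well above background, so the fibroblast array was the dimmer. The fibroblast array was scanned apart from the hepatocyte array, so scan and cell type cannot be told apart. Replicate spots gave an SD of 0.13 for a log2 difference, and different probes of the same gene a pooled SD of 1.11. Because the arrays differ in brightness, the 2-fold count of each gene list is followed by the count that stayed at least 2-fold under each of 3 scalings: the 75th percentile, quantile normalization, and normexp background correction of raw signals.

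At least 2-fold differences were common: 5464 genes, 30.9% of those compared, were higher in hepatocytes and 4488, 25.4%, were lower. Under each of the 3 scalings 3071 (17.4%) were higher and 4329 (24.5%) lower, so at 2-fold it was mainly calls toward the hepatocytes that were lost. Normexp, 1 of the 3, adds an offset of 50 to every spot. Median intensity was 44.1 on the fibroblast array and 256 on the hepatocyte array. The part of this offset in the lost calls was not tested. Higher calls made up 54.9% of the 2-fold calls, but 44.1% under quantile normalization, 39.0% under normexp and 42.0% in the authors' deposited values. These scalings moved the median difference of all compared genes from 0.12 to -0.16, -0.50 and -0.19. These 4 medians use measured values on dim sides too. The medians of gene lists below hold dim sides at their bounds, and the median of all genes taken that way was 0.05. At 8-fold, 1911 genes (10.8%) were higher and 961 (5.43%) lower, and under each scaling 1019 (5.76%) and 687 (3.88%). At 64-fold these were 545 (3.08%) and 126 (0.712%). Differences of this size lay more often on the hepatocyte side, and 43.7% of genes were within 2-fold. At 8-fold the share of higher calls was 66.5%, but 54.8% under quantile normalization and 55.4% in the authors' deposited values. The plot of levels shows the hepatocyte genes as a broad field that is dim in the fibroblasts, and the fibroblast genes as a band below the diagonal whose members mostly still read above background in the hepatocytes.

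**Figure D2:**
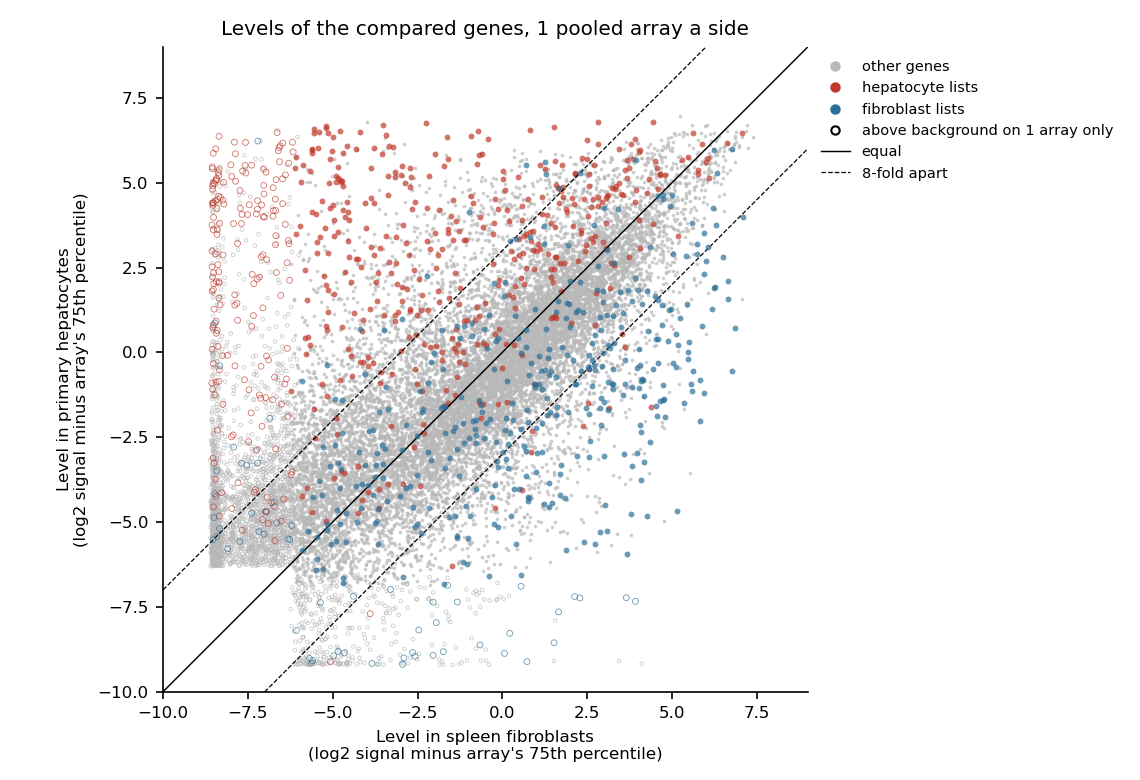
Level of each compared gene in the fibroblasts (horizontal) and hepatocytes (vertical), as log2 signal minus the array's 75th percentile; colours mark genes of the hepatocyte and fibroblast lists, open points were above background on 1 array only, and dashed lines are 8-fold apart. Hepatocyte genes fill the upper left, with bounds along the left edge, and the column of open points at the left of the plot is the fibroblast array's background.

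The 10 largest measured differences toward the hepatocytes included Alb and Hnf4a, given above. Serpina1d, an alpha-1-antitrypsin gene, was at -5.55 in the fibroblasts and 6.58 in the hepatocytes, 4488-fold higher. Apoc3, an inhibitor of lipoprotein clearance, was at -5.55 in the fibroblasts and 6.46 in the hepatocytes, 4128-fold higher, and Ahsg, the plasma protein fetuin A, was at -5.40 in the fibroblasts and 6.48 in the hepatocytes, 3780.1-fold higher. Ambp, the precursor of alpha-1-microglobulin, was 3654-fold higher, Mup21 and Mup2, pheromone carriers of urine, 3633-fold higher and 3092-fold higher, and Abcb11, the bile salt export pump, 3016-fold higher. The pancreatic amylase gene Amy2a5 was also among these 10, 3720.5-fold higher. Bounds were as large, and the largest was that of the pancreatic lipase gene Pnlip, at least 7436-fold higher. Other large bounds included Mug2, a protease-trapping macroglobulin, at least 6525-fold higher, and the retinol dehydrogenase gene Rdh7, at least 5949-fold higher. The adhesive plasma protein gene Vtn was at least 5926-fold higher and Bhmt, which remethylates homocysteine, at least 5787-fold higher. Genes of the Serpina1 and Mup clusters are near-identical copies whose probes may share transcripts, so their separate values are uncertain.

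In the other direction the largest measured difference was that of Itga11, a collagen-binding integrin of fibroblasts, which was at 5.16 in the fibroblasts and -4.66 in the hepatocytes, 906-fold lower. Cdkn2a, which encodes the cell cycle inhibitors p16 and p19ARF, was at 4.77 in the fibroblasts and -4.95 in the hepatocytes, 847-fold lower. Col8a1, a network collagen, was at 3.67 in the fibroblasts and -5.94 in the hepatocytes, 781-fold lower. Lox, which cross-links collagen and elastin, was 547-fold lower, the chemokine gene Ccl7 544-fold lower, the skeletal actin gene Acta1 480.3-fold lower, and the mesenchymal factor gene Prrx1 379-fold lower. Gpr176 and Kif1a were also among these 10, 572-fold lower and 421-fold lower. The largest bounds were those of Prl2c5, a prolactin family member, at least 2045-fold lower, Ccn5, a matricellular protein gene, at least 1802-fold lower, Tnc, the matrix protein tenascin C, at least 1494-fold lower, and the limb factor gene Tbx15, at least 1288-fold lower.

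Most regulators of the hepatocyte state were higher, and a few general factors were not. Of the liver-enriched transcription factors, 23 of 33 compared genes were at least 2-fold higher and 2 lower (19 and 1 under each of the 3 scalings). Hnf4a had the largest difference of the list. The pioneer factor genes Foxa1 and Foxa3 were at least 131-fold higher and at least 149-fold higher, and Foxa2 36.9-fold higher. Cebpa, which drives hepatocyte maturation, was at -1.56 in the fibroblasts and 1.61 in the hepatocytes, 9.03-fold higher, so the fibroblast pool also read its transcript. Which cells of that pool held it was not tested. Nuclear receptors of bile acids, drugs and fatty acids were higher, with Nr1h4 128-fold higher, Nr1i3 17.0-fold higher, Nr1i2 at least 67.7-fold higher and Ppara 102-fold higher by its brightest probe. Another probe of Ppara differed by 3.02. Creb3l3, a secretory and lipid regulator of liver, was 193-fold higher. Some factors of the list were within 2-fold, as Cebpb at 5.78 and 5.38 and Atf5 at 5.77 and 5.25. Nfia was at -1.68 and -1.59 by its brightest probe, while another differed by 2.13. The clock output factor Dbp was at 3.15 in the fibroblasts and -1.65 in the hepatocytes, 27.8-fold lower. Mlxipl, the carbohydrate response factor, was 378-fold higher by its brighter probe, while another of its probes differed by -0.15.

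Promoters are shown for 4 genes of this comparison, each from 250 bases before to 50 after a RefSeq start site on GRCm38.p6, because their windows hold motifs searched for here. Capitals mark the HNF1 core GTTAAT and the C/EBP motif in Alb (chr5:90460620-90460919, plus strand), 2 HNF1 cores in the second listed window of Hnf4a (chr2:163546905-163547204, plus strand), an HNF1 core and the TATA box in G6pc (chr11:101367466-101367765, plus strand), and the TEAD core GGAATG in the smooth muscle actin gene Acta2 (chr19:34255324-34255623, minus strand). All are printed 5′ to 3′ on the gene's strand, with cores read on both strands.
Alb: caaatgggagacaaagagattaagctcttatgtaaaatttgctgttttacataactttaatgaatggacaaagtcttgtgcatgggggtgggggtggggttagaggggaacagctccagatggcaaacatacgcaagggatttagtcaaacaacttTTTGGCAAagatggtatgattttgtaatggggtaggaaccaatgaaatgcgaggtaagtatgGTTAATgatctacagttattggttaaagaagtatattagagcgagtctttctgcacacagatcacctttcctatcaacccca
Hnf4a: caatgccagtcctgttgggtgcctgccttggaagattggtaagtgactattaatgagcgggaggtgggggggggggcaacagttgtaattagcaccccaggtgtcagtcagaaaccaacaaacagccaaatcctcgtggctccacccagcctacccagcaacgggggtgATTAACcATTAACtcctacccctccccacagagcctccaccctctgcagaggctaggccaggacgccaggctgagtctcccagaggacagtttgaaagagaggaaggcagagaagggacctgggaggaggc
G6pc: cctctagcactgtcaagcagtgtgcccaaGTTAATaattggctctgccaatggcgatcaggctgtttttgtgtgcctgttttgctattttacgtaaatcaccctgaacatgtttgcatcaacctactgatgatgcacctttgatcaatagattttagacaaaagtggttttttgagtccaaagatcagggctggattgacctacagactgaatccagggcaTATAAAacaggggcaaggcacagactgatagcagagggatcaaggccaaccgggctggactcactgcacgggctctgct
Acta2: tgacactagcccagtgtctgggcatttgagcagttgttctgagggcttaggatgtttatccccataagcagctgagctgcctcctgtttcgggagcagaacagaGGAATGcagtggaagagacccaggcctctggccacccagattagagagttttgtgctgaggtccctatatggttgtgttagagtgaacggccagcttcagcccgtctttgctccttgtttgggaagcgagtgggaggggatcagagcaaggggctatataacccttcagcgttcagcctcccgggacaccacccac
The HNF1 cores start at -32 in Alb, at -81 and -74 in Hnf4a and at -221 in G6pc, and the TEAD core at -146 in Acta2, counted from the start site. Alb and Hnf4a were given above. Of the TEAD factor genes, Tead1 differed by -4.11 (-0.57 by another probe), Tead2 by -2.19, Tead3 by -1.47 and Tead4 by 0.01. G6pc, the last enzyme of glucose release, was at -4.85 in the fibroblasts and 3.55 in the hepatocytes, 337-fold higher, and Acta2 was at 5.82 in the fibroblasts and -0.82 in the hepatocytes, 99.8-fold lower.

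Windows of that length were then searched on both strands for each motif, 17371 windows of 13987 compared genes in all. The HNF1 core was in 5.63% of them, in 9.93% of those of genes at least 8-fold higher in hepatocytes, in 15.9% at 64-fold, in 5.01% of those of genes at least 8-fold lower, and in 5.65% at 64-fold lower. The C/EBP motif (TTGCNNAA) was in 9.63%, 14.3%, 19%, 8.82% and 8.06% of the same classes, and the TATA box (TATAAA) in 10.3%, 17.2%, 24.4%, 9.69% and 17.7%, so that the TATA box was also more frequent in the lowest class than in all windows. The longer HNF4 motif CAAAGTCCA was rare, in 0.47%, 1.51%, 4.18%, 0.11% and 0.81%. The SP1 core GGGCGG was in 52.7%, 33.7%, 21.7%, 59.8% and 56.5%, and mean GC content was 58.2%, 53.9%, 50.5%, 60.6% and 60.1%. The TEAD core was in 13.1%, 16.3%, 18%, 15.4% and 16.9%. It was thus more frequent on both sides than in all windows, and not more frequent on the fibroblast side than on the hepatocyte side. Base composition thus differed between the classes along with the AT-rich cores, and its part in these shares was not tested. In the contractile and myofibroblast list 14 of 37 windows (37.8%) held the TEAD core, as did 25.8% of the acinar list's windows, and 4 (10.8%) the CArG box, the site of serum response factor, against 1.44%. Over the same classes as above the CArG box was in 1.44%, 1.40%, 1.67%, 2.40% and 5.65% of windows. The AP-1 motif (TGANTCA) was in 6.36%, 9.25%, 11.3%, 6.75% and 4.84%. A match is a run of letters and no site of binding; all shares are descriptions.

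Plasma proteins were among the lists farthest apart, with the 7 major urinary protein genes, whose median difference was 11.50. Of the plasma carrier genes, 28 of 30 compared genes were at least 2-fold higher and 0 lower (28 and 0 under each of the 3 scalings), of the serpin and inter-alpha inhibitor genes 17 of 18 were higher and 0 lower (17 and 0 under each scaling), and of acute phase proteins 15 of 16 were higher and 0 lower (15 and 0 under each scaling). Their median differences were 10.21, 10.48 and 8.51 with dim sides at their bounds, beside 0.05 for all genes. Hamp, the iron hormone hepcidin, was at -7.59 in the fibroblasts, not well above background, and 5.51 in the hepatocytes, at least 3601-fold higher. The acute phase gene Saa2 was at -6.47 in the fibroblasts, not well above background, and 6.17 in the hepatocytes, at least 5679-fold higher, and Orm1, an acid glycoprotein, at least 2283-fold higher. A total of 4 members of these lists were within 2-fold: Selenop, the selenium carrier, was at 5.28 and 5.67, Serpinf1, the anti-angiogenic factor PEDF, at 6.10 and 5.15 (its other probe differed by -1.36), Pon3 at 1.72 and 1.81, and Il1rn, the interleukin-1 receptor antagonist, at -3.62 and -4.58. Apoa2, an apolipoprotein of HDL, was at 4.45 in the fibroblasts and 6.79 in the hepatocytes, 5.07-fold higher by its brightest probe, another giving a difference of 9.44.

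Clotting and complement genes followed the same pattern with a few exceptions. Among coagulation and fibrinolysis genes 20 of 22 were higher and 1 lower (20 and 1 under each scaling), and among complement genes 18 of 20 were higher and 0 lower (18 and 0 under each scaling). F2, which encodes prothrombin, was at -6.57 in the fibroblasts, not well above background, and 5.62 in the hepatocytes, at least 3878-fold higher, the fibrinogen chain gene Fgb at least 5334-fold higher, antithrombin (Serpinc1) at least 4311-fold higher and plasminogen (Plg) at least 3637-fold higher. The clotting factor gene F10 was at 4.63 and 5.24 by its brightest probe, but another of its probes differed by 9.96, and Pros1, the anticoagulant protein S, was at 2.02 in the fibroblasts and 0.86 in the hepatocytes, 2.24-fold lower. Of complement genes, Cfi, which encodes an enzyme that cleaves C3b, was at least 3376-fold higher, C8a at least 2012-fold higher and the lectin gene Mbl2 2981-fold higher. C3, the central component, was 34.8-fold higher, C4b 9.17-fold higher, C1ra 3.97-fold higher and C1s1 at 1.82 and 2.63. Properdin (Cfp), which stabilises the alternative pathway convertase, was at 3.05 and 3.07.

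Detoxifying enzymes were mostly a hepatocyte property. Of the cytochrome P450 list, 38 of 40 were higher and 1 lower (31 and 1 under each scaling). In the fibroblasts 16 of the 40 were above background, beside 14969 of 20536 over all genes. Cyp2e1, which oxidises ethanol, was at -5.02 in the fibroblasts and 5.93 in the hepatocytes, 1987-fold higher. Cyp2a12 was at least 5049-fold higher, Cyp2c54 at least 3490.4-fold higher and Cyp3a11, a main drug-metabolising form, at least 2690.4-fold higher. Cyp1b1, a form of extrahepatic tissues, was at 4.39 in the fibroblasts and -1.60 in the hepatocytes, 63.7-fold lower. Cyp51, which makes sterols in all cells, was at -0.10 and 0.70. Among conjugating enzymes 31 of 37 were higher and 1 lower (31 and 1 under each scaling). The glucuronosyltransferase genes Ugt2b5 and Ugt2b36 were at least 1664-fold higher and at least 1592-fold higher, whereas the glutathione transferase gene Gstm2 was at 5.17 in the fibroblasts and 3.44 in the hepatocytes, 3.33-fold lower. The sulfotransferase genes Sult2a1 and Sult3a1 were not above background on either array.

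For bile acids, 30 of 32 were higher and 0 lower (29 and 0 under each scaling). Cyp7a1, the rate-limiting enzyme of their synthesis, was at -7.88 in the fibroblasts, not well above background, and -0.40 in the hepatocytes, at least 60.0-fold higher. Slc27a5, which activates bile acids for conjugation, was 2703-fold higher, Akr1c6 at least 2916-fold higher, and the liver organic anion transporter gene Slco1b2 at least 1675-fold higher. Slc10a1, the bile salt uptake carrier NTCP and otherwise a hepatocyte marker, was at 5.99 in the fibroblasts, 4.79 in the hepatocyte-like cells and 5.62 in the hepatocytes. The probe used was thus bright on all 3 arrays and did not separate the cells, whereas Slc10a2, Slco1a1 and Slco1a4, also uptake carriers, were at least 2-fold higher under each scaling. Pigr, the polymeric immunoglobulin receptor of epithelia, likewise read 5.89 and 6.15.

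Nitrogen handling was higher as a whole. All 14 urea cycle and ammonia genes and all 45 compared genes of amino acid catabolism were at least 2-fold higher, under each scaling too. Otc, the ornithine transcarbamylase of the cycle, was at -8.39 in the fibroblasts, not well above background, and 4.51 in the hepatocytes, at least 1798-fold higher, Cps1, which fixes ammonia, at -5.51 in the fibroblasts and 4.09 in the hepatocytes, 772-fold higher, and Arg1, which releases urea, at least 2691-fold higher. The smallest differences were in mitochondrial enzymes shared with other tissues, with Glud1, glutamate dehydrogenase, at 3.45 in the fibroblasts and 4.98 in the hepatocytes, 2.90-fold higher and Mccc1, a leucine breakdown enzyme, 2.59-fold higher. Tyrosine breakdown read high, with Hpd at least 2394-fold higher and Tat 356-fold higher, as was methionine metabolism, with Mat1a at least 2617-fold higher and Gnmt 630.1-fold higher. Hao2 and Dao were not above background on either array.

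**Figure D3:**
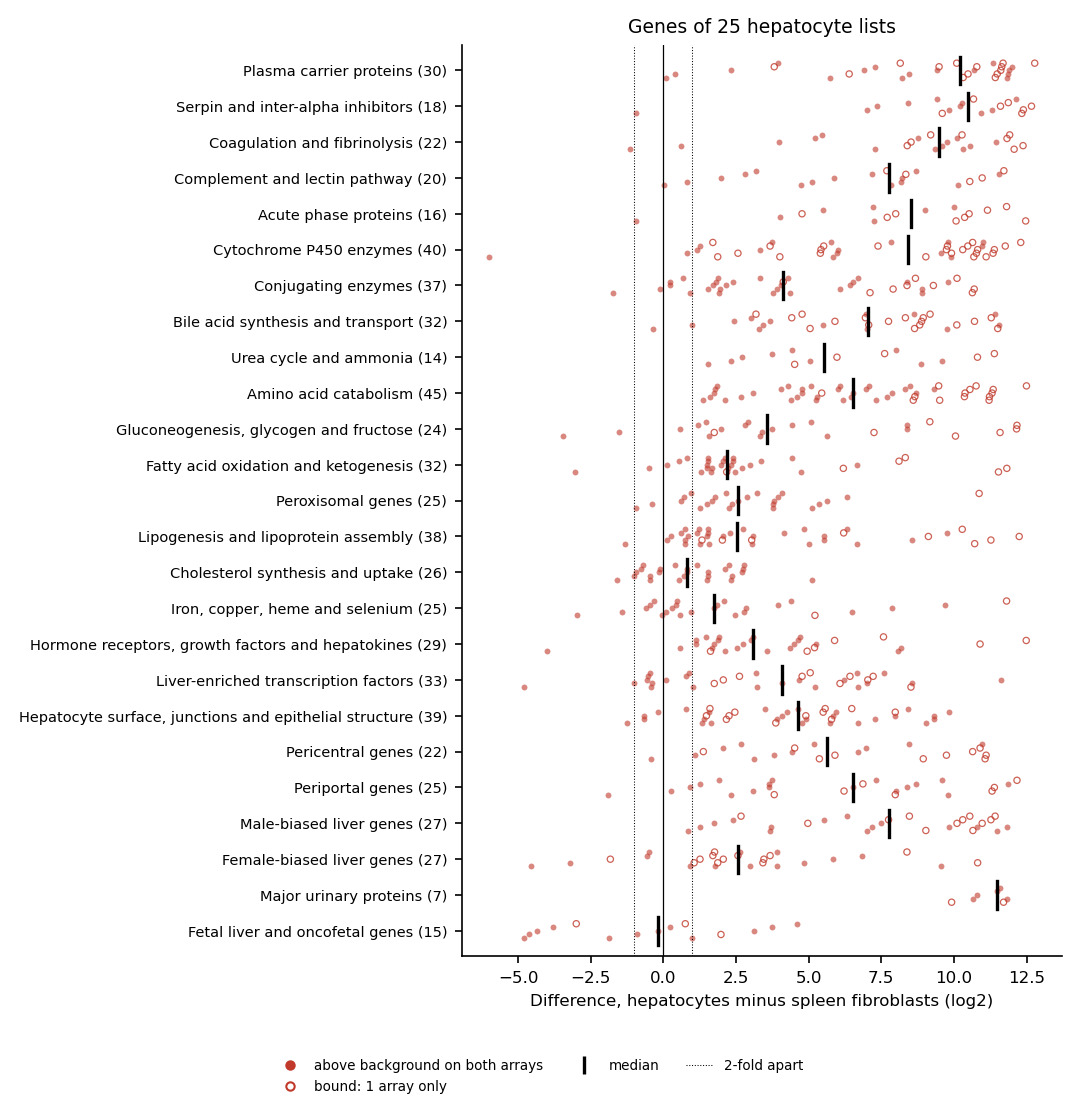
Difference in level, hepatocytes minus fibroblasts (log2), for the compared genes of 25 hepatocyte lists (number of genes in brackets); open points are bounds, the bar is the median and dotted lines mark 2-fold. Most lists lie to the right, while cholesterol synthesis and the fetal genes straddle 0.

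Proteins with alternative forms, most of them isoenzymes, were then compared step by step. The 20 steps also held carriers, binding proteins, receptors, cadherins and gap junction proteins. Each had 1 form called the liver form here and at least 1 other form. The label does not mean that the other form is absent from liver. In the hepatocytes Acaca and Cdh2, both other forms, read 3.36 and 1.91, beside 2.44 and 1.68 for Acacb and Cdh1. The list was chosen after values were seen, so its counts describe the choice. All 20 liver forms were at least 2-fold higher, with a median of 7.98. Of 29 other forms 16 were lower, 9 within 2-fold and 4 higher, with a median of -1.27. In 13 of the 20 steps the liver form was higher and another form lower. For pyruvate kinase, Pklr was at -7.80 in the fibroblasts, not well above background, and 0.95 in the hepatocytes, at least 152-fold higher, while Pkm was at 3.54 in the fibroblasts and -0.35 in the hepatocytes, 14.8-fold lower. Glycogen synthase showed the same split, with Gys2 at least 1064-fold higher and Gys1 10.5-fold lower. Glucose carriers followed, Slc2a2 being at least 577-fold higher and Slc2a1 4.17-fold lower. Pck1, the cytosolic gluconeogenic PEP carboxykinase, was at -8.52 in the fibroblasts, not well above background, and 5.87 in the hepatocytes, at least 4616-fold higher, and its mitochondrial form Pck2 was at -2.42 in the fibroblasts and -3.95 in the hepatocytes, 2.88-fold lower. Steps without a split included arginase, where Arg2 was also at least 2.26-fold higher, and acyl-CoA synthetase, where Acsl1 was 26.8-fold higher and Acsl4 2.17-fold higher.

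In gluconeogenesis, glycogen and fructose metabolism 21 of 24 were higher and 2 lower (19 and 2 under each scaling). The other exceptions were Gyg, the glycogenin primer of glycogen, which was at 3.61 in the fibroblasts and 0.14 in the hepatocytes, 11-fold lower, and Galk1, galactokinase, at 1.49 and 2.06. Glycolysis shared by all cells ran lower in hepatocytes, with 4 of 32 higher and 18 lower (3 and 18 under each scaling) and a median of -1.22; Eno2, the neuronal enolase, was 10.9-fold lower and G6pdx, the entry to the pentose phosphate pathway, 12.5-fold lower, while Eno3 was 10.5-fold higher and Pgk1 was at 4.22 and 4.17. Gapdh was 2.32-fold lower by its brightest probe, its 7 probes spanning -1.21 to 0.57.

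Lipid genes differed by branch. Genes that oxidise fatty acids or make ketones had 27 of 32 higher and 1 lower (26 and 1 under each scaling) with a median of 2.20, and peroxisomal genes 20 of 25 higher and 0 lower (20 and 0 under each scaling). Oxct1, which tissues other than liver use to burn ketone bodies, was at 2.55 in the fibroblasts and -0.50 in the hepatocytes, 8.24-fold lower. Uox, the peroxisomal urate oxidase, was at least 1871-fold higher, and Acsm1, a medium-chain acyl-CoA synthetase, at least 2968-fold higher. Of beta-oxidation genes, Acadvl was 2.81-fold higher and Hadha at -1.38 and -1.26. Among lipogenic and lipoprotein genes 30 of 38 were higher and 1 lower (24 and 1 under each scaling). Elovl3, a fatty acid elongase, was at -8.49 in the fibroblasts, not well above background, and 4.97 in the hepatocytes, at least 2479-fold higher, and Fabp1, the liver fatty acid binding protein, at least 4868-fold higher, whereas Dgat1, a triglyceride synthase, was at -0.62 in the fibroblasts and -1.94 in the hepatocytes, 2.49-fold lower.

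Cholesterol synthesis and uptake separated the pools less, with 12 of 26 higher and 1 lower (11 and 1 under each scaling) and a median of 0.81. Soat2, the sterol acyltransferase of liver and gut, was at -1.60 in the fibroblasts and 3.53 in the hepatocytes, 34.9-fold higher, Scarb1, the HDL receptor, 6.87-fold higher, and the mevalonate enzyme gene Mvd 3.02-fold lower. Genes of iron, copper, heme and selenium were also mixed, 13 of 25 higher and 2 lower (11 and 2 under each scaling). Tfr2, the iron sensor of hepatocytes, was at -2.86 in the fibroblasts and 5.0 in the hepatocytes, 233-fold higher, and Tfrc, the general transferrin receptor, was at -0.12 in the fibroblasts and -1.53 in the hepatocytes, 2.66-fold lower by its brightest probe, with another at -0.18. Hmox1, which degrades heme, was 7.87-fold lower by its brightest probe and differed by -0.30 by another. Ferritin and metallothionein genes were bright on both arrays, with Fth1 at 6.64 and 6.17 and Mt1 at 5.46 and 5.75.

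Growth factors, receptors and hepatokines had 27 of 29 higher and 1 lower (23 and 1 under each scaling). Igfbp1, an IGF binding protein induced by fasting, was at -7.57 in the fibroblasts, not well above background, and 6.19 in the hepatocytes, at least 5756-fold higher. Mst1, hepatocyte growth factor-like protein, was 291-fold higher, Lect2 at least 1913-fold higher and the glucagon receptor gene Gcgr 37.9-fold higher. Ghr, the growth hormone receptor, was at 2.68 and 3.25 by its brightest probe, with another at a difference of 1.77, and Igf1, its main target, was at 4.05 in the fibroblasts and 5.97 in the hepatocytes, 3.79-fold higher. Inhba, an activin subunit, was at 2.53 in the fibroblasts and -1.49 in the hepatocytes, 16.2-fold lower. Genes of epithelial structure had 34 of 39 higher and 1 lower (28 and 1 under each scaling). The asialoglycoprotein receptor genes Asgr1 and Asgr2 were 632-fold higher and 920.5-fold higher. Cdh1, epithelial cadherin, was at -6.53 in the fibroblasts, not well above background, and 1.68 in the hepatocytes, at least 253-fold higher, and Cdh2, which hepatocytes also use, was at 3.17 in the fibroblasts and 1.91 in the hepatocytes, 2.39-fold lower by its brightest probe, with another at -0.54. Krt18, a simple epithelial keratin, was at -0.66 in the fibroblasts and 3.98 in the hepatocytes, 24.9-fold higher.

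Genes of both ends of the liver lobule were higher in hepatocytes. Of genes of the zone around the central vein 21 of 22 were higher and 0 lower (19 and 0 under each scaling), and of those of the portal side 22 of 25 were higher and 1 lower (22 and 1 under each scaling), with medians of 5.64 and 6.53. Rgn and Lgr5, pericentral genes, were at least 2156-fold higher and at least 41.4-fold higher, Axin2, a WNT target, 13.9-fold higher, and Ftcd, a periportal gene of histidine breakdown, at least 2547-fold higher. Tbx3 did not separate the pools, at 1.44 and 1.02, and Sox9, a periportal and biliary factor, was at 2.72 in the fibroblasts and 0.81 in the hepatocytes, 3.75-fold lower.

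Sex-biased liver genes were read beside the Y-linked genes given above. Of male-biased genes 26 of 27 were higher and 0 lower (24 and 0 under each scaling), median 7.75 (5.58 under normexp), and of female-biased genes 21 of 27 were higher and 3 lower (9 and 3 under each scaling), median 2.57 (0.09 under normexp). Hsd3b5, a male-specific steroid enzyme of mouse liver, was at -6.48 in the fibroblasts, not well above background, and 5.12 in the hepatocytes, at least 2741-fold higher, and Mup20, the male pheromone darcin, was at -5.09 in the fibroblasts and 5.71 in the hepatocytes, 1779-fold higher. In the female-biased list, Cyp2b9 was at -7.97 in the fibroblasts, not well above background, and -4.60 in the hepatocytes, at least 3.26-fold higher, and A1bg, Hao2, Sult2a1 and Sult3a1 were not above background in the hepatocytes. Others of that list were bright, among them Cyp3a16, at least 1805-fold higher, Cyp2a4, 755-fold higher, and Fmo1, 116-fold higher. Most calls of the female-biased list depended on scaling, and the near-identical Cyp3a, Cyp2a and Mup copies may share signal.

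Fetal and oncofetal genes did not mark the hepatocytes, with 5 of 15 higher and 6 lower (3 and 6 under each scaling). Afp, the fetal counterpart of albumin, was at -2.60 and -2.80. The growth regulator genes Igf2bp3 and Hmga2 were at -1.49 in the fibroblasts and -6.30 in the hepatocytes, 28-fold lower, and at 0.85 in the fibroblasts and -2.94 in the hepatocytes, 13.8-fold lower, respectively. Sall4, a factor of hepatoblasts, was at -2.46 in the fibroblasts and 2.15 in the hepatocytes, 24.5-fold higher, and the imprinted gene Mest 13.5-fold higher.

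Collagens differed by type. Of fibrillar collagen genes 1 of 10 compared genes were at least 2-fold higher and 8 lower (0 and 8 under each of the 3 scalings), with a median of -4.11. Col1a1 and Col3a1, the main chains of scar collagen, were at 7.09 in the fibroblasts and 3.99 in the hepatocytes, 8.54-fold lower, and at 6.5 in the fibroblasts and 2.82 in the hepatocytes, 12.8-fold lower, respectively, and both read above the 75th percentile in the hepatocytes. Col5a1, which seeds fibrils, was at 5.93 in the fibroblasts and -1.20 in the hepatocytes, 139.9-fold lower, and Col11a1 at least 196-fold lower. Of basement membrane and network collagens 2 of 15 were higher and 10 lower (2 and 10 under each scaling); Col6a3 was 51.5-fold lower and the basement membrane chain Col4a1 14.6-fold lower, while Col18a1, the source of endostatin, was at 0.71 in the fibroblasts and 5.54 in the hepatocytes, 28.4-fold higher. Col4a6 was 15.4-fold higher by its brighter probe, but another of its probes differed by -1.33. FACIT and transmembrane collagens had 4 of 11 higher and 2 lower (1 and 2 under each scaling). Their median of 0.72 turned to -0.09 with quantile normalization, -0.46 with normexp and -0.30 in the authors' deposited values. Col16a1 was 44.8-fold lower (-3.22 on the log2 scale by another probe), and Col14a1 3.08-fold higher (5.36 by another probe).

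The enzymes that fold and cross-link collagen were mostly lower, with 1 of 27 higher and 21 lower (1 and 21 under each scaling). Loxl2, a lysyl oxidase, was at 4.06 in the fibroblasts and -2.14 in the hepatocytes, 73.4-fold lower, and Fkbp10, a collagen chaperone, was at 5.11 in the fibroblasts and -0.43 in the hepatocytes, 46.4-fold lower. P4hb, a disulfide isomerase of all secretory cells, was at 4.58 and 4.61. Of matrix glycoproteins 7 of 40 were higher and 27 lower (5 and 25 under each scaling). Fbln2, a fibulin, was at 6.76 in the fibroblasts and -0.54 in the hepatocytes, 158-fold lower, and Ltbp2, an elastic fibre protein, 171-fold lower. Fibronectin (Fn1), which hepatocytes also secrete into plasma, was at 6.34 in the fibroblasts and 5.30 in the hepatocytes, 2.06-fold lower. Vtn, a liver plasma protein on this list, gave the largest opposite difference, at least 5926-fold higher, and Smoc1 was 33.3-fold higher.

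Proteoglycans did not separate as a list, with 9 of 25 higher and 10 lower (7 and 10 under each scaling); their median of 0.05 was -0.25 under quantile normalization. Aspn, asporin, was at 1.86 in the fibroblasts and -5.83 in the hepatocytes, 206-fold lower, and Gpc6 and the hyaluronan synthase gene Has2 were 137-fold lower and at least 138-fold lower. Lumican (Lum) was at -5.16 in the fibroblasts and -0.37 in the hepatocytes, 27.6-fold higher, and decorin (Dcn) was at 2.71 and 3.76. Versican (Vcan) gave opposite readings: 20.4-fold higher by its brightest probe and -5.54 on the log2 scale by another, so no direction is given for it. Matrix proteases and their inhibitors were lower, 4 of 35 higher and 29 lower (1 and 29 under each scaling). Mmp11 was at 4.09 in the fibroblasts and -3.76 in the hepatocytes, 230.3-fold lower, and Ctsk, the collagen-degrading cathepsin K, 70.6-fold lower. Mmp15, a membrane protease, was at -4.93 in the fibroblasts and -1.36 in the hepatocytes, 11.8-fold higher.

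Contractile genes were mostly lower in hepatocytes, 2 of 35 higher and 28 lower (0 and 28 under each scaling), with a median of -2.65. Actg2, enteric smooth muscle actin, was at 3.08 in the fibroblasts and -5.25 in the hepatocytes, 323-fold lower, Cnn1, calponin, was at 3.82 in the fibroblasts and -3.35 in the hepatocytes, 144-fold lower, and Tpm2, a tropomyosin, 114-fold lower. Myh11, the myosin of mature smooth muscle, was dim on both arrays, at -5.27 and -6.39. Pdlim3 was above background in the hepatocytes alone, at -3.33. Probes of Synpo2 disagree in sign, so no direction is given for it. Targets of YAP, TEAD and serum response factor had 2 of 28 higher and 21 lower (1 and 21 under each scaling). F3, tissue factor, was at 5.82 in the fibroblasts and -2.03 in the hepatocytes, 230.0-fold lower, Fhl2 187-fold lower, the matricellular gene Ccn1 85.9-fold lower and Ankrd1, a stretch-responsive cofactor, 52.1-fold lower. Egr1, an early growth response gene, was at 2.98 in the fibroblasts and 4.24 in the hepatocytes, 2.39-fold higher.

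Mesenchymal transcription factors had 5 of 45 higher and 34 lower (2 and 34 under each scaling). Prrx2, a homeobox factor of connective tissue, was at 2.73 in the fibroblasts and -5.66 in the hepatocytes, 333-fold lower, and Twist2 was at 2.29 in the fibroblasts and -7.24 in the hepatocytes, not well above background, at least 579-fold lower. Twist1 was at 2.69 in the fibroblasts and -0.37 in the hepatocytes, 8.35-fold lower, and Ebf1, a factor of stromal and B cells, 61.6-fold lower. Nfatc4 ran the other way, 6.04-fold higher. HOX genes, which record body position, were lower too, 6 of 36 higher and 24 lower (2 and 24 under each scaling). Hoxc6 was at 2.88 in the fibroblasts and -5.30 in the hepatocytes, 290.2-fold lower, Hoxc9 was at least 341-fold lower, Hoxc10 73.5-fold lower and Hoxa11 at least 75.3-fold lower. Hoxa9 and Hoxc12 were the members higher under each scaling, 5.60-fold higher and 10.7-fold higher.

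Surface and signalling genes of fibroblasts had 4 of 43 higher and 34 lower (4 and 34 under each scaling) and a median of -3.05. Cd248, endosialin, was at 4.36 in the fibroblasts and -2.65 in the hepatocytes, 129.6-fold lower, Ncam1 was at 3.60 in the fibroblasts and -2.99 in the hepatocytes, 95.9-fold lower, and the PDGF receptor genes Pdgfra and Pdgfrb were 23.1-fold lower and 40.5-fold lower. Agtr1a, an angiotensin receptor, was at -2.23 in the fibroblasts and 2.24 in the hepatocytes, 22.1-fold higher, and the ecto-nucleotidase gene Nt5e 4.19-fold higher. The TGF-beta, BMP and activin pathway had 8 of 40 higher and 21 lower (6 and 21 under each scaling): the BMP antagonist gene Grem1 was at least 374-fold lower and Fstl3 66.2-fold lower, whereas the ligand gene Bmp2 was at least 144-fold higher and the antagonist gene Nog 34.2-fold higher. WNT genes did not separate as a list, with 14 of 45 higher and 14 lower (10 and 14 under each scaling). Over all genes 30.9% were higher and 25.4% lower (17.4% and 24.5% under each scaling). Among them the inhibitor gene Dkk2 was at least 520.5-fold lower and Sfrp1 257-fold lower, while the endothelial ligand gene Wnt9b was at least 20.6-fold higher and Rnf43, a feedback inhibitor, 29.7-fold higher.

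Splenic stroma genes did not mark the fibroblasts as a list, 11 of 29 higher and 11 lower (6 and 11 under each scaling), and their median of 0.48 turned to -0.60 with quantile normalization, -0.58 with normexp and -0.31 in the authors' deposited values. Tlx1, a factor needed to form the spleen, was not above background in the fibroblasts, and Nkx2-5 was at -3.5 there against 0.67 in the hepatocytes. Cxcl13 and Ccl19, chemokines of the white pulp, read -8.33, not well above background, and -4.22 in the fibroblasts. Others were higher there: Pdpn, the podoplanin of reticular fibroblasts, was at 4.70 in the fibroblasts and 0.81 in the hepatocytes, 14.8-fold lower, and Mfge8, which bridges dying cells to phagocytes, 16.2-fold lower.

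**Figure D4:**
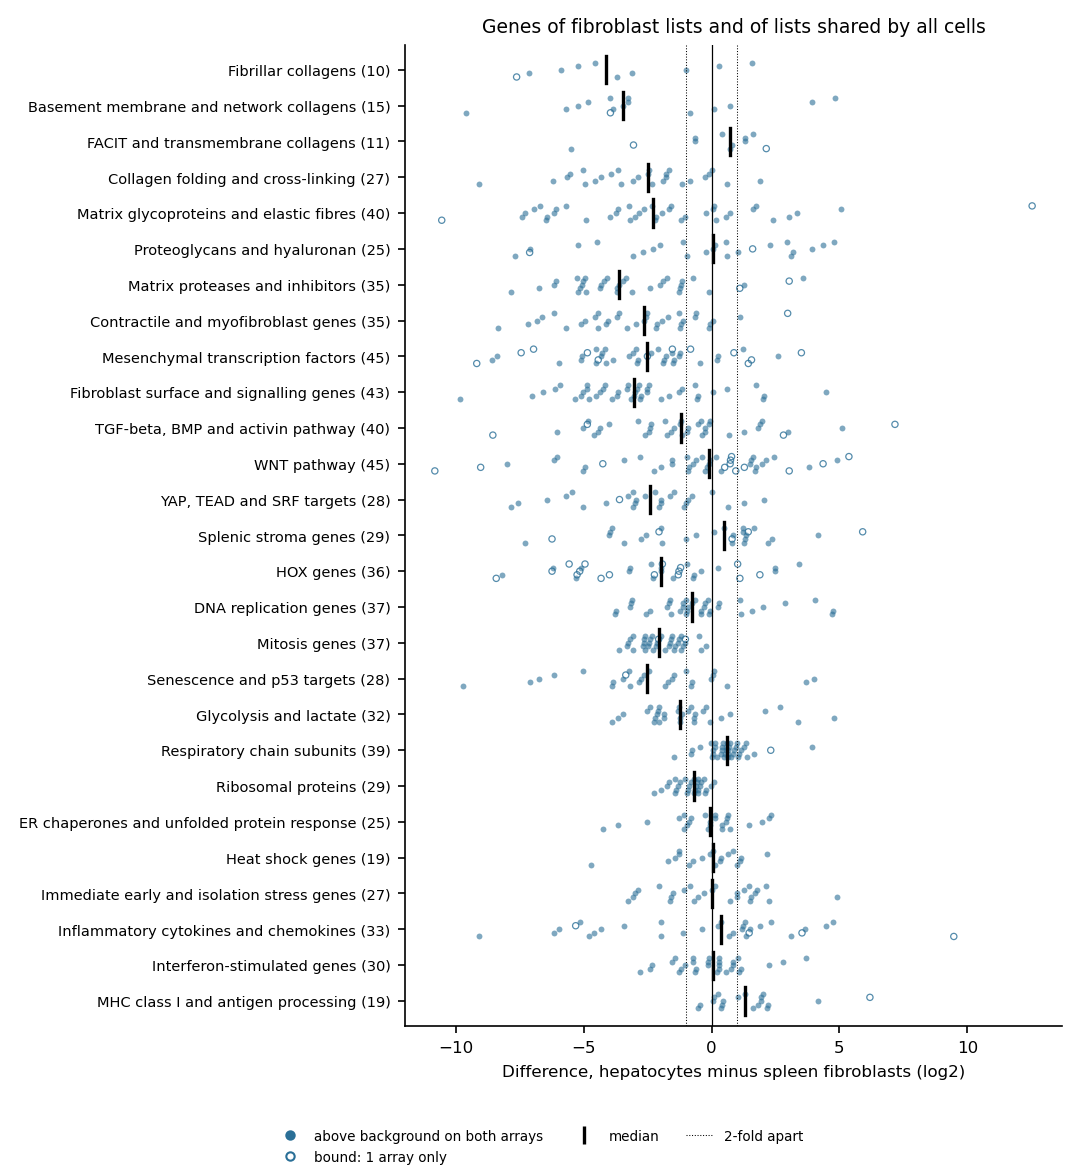
Difference in level, hepatocytes minus fibroblasts (log2), for the compared genes of the fibroblast lists and of lists shared by all cells (number of genes in brackets); open points are bounds, the bar is the median and dotted lines mark 2-fold. Fibrillar collagens, proteases, contractile genes and mitosis genes lie to the left, and respiratory chain subunits cluster just right of 0.

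Genes of dividing cells were lower mainly in the mitosis list, with 0 of 37 higher and 34 lower (0 and 33 under each scaling), while replication genes had 8 of 37 higher and 16 lower (5 and 15 under each scaling). Anln, a cleavage furrow protein, was at 0.77 in the fibroblasts and -2.55 in the hepatocytes, 9.96-fold lower, and Kif20a 9.1-fold lower. Tpx2 was 12.3-fold lower by its brightest probe and 5.53 on the log2 scale the other way by another. Replication genes higher in hepatocytes were Mcm10, 26.4-fold higher, and the thymidylate synthase gene Tyms, 26.8-fold higher, among others. Senescence genes and p53 targets had 2 of 28 higher and 20 lower (2 and 20 under each scaling). Cdkn2b, p15, was at 3.43 in the fibroblasts and -3.67 in the hepatocytes, 138-fold lower, and Phlda3, a p53 target, 70.5-fold lower, while Sesn2 was 16.0-fold higher and Perp 12.8-fold higher.

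Respiratory chain subunits had 9 of 39 higher and 1 lower (5 and 1 under each scaling), a smaller share of higher calls than the 30.9% and 17.4% over all genes, with a median of 0.62. Ribosomal protein genes had 0 of 29 higher and 10 lower (0 and 8 under each scaling), beside 25.4% and 24.5% lower over all genes, with a median of -0.68. Uqcrfs1, the Rieske subunit of complex III, was 3.20-fold higher, and Rpl3 was 4.69-fold lower. Heat shock genes had 3 of 19 higher and 5 lower (3 and 5 under each scaling), with the small chaperone gene Cryab at 3.69 in the fibroblasts and -1.01 in the hepatocytes, 25.9-fold lower, and endoplasmic reticulum stress genes 4 of 25 higher and 6 lower (3 and 6 under each scaling), with Ddit3 (CHOP) 19-fold lower and Trib3 12.5-fold lower. Immediate early genes, which respond to cell isolation, had 9 of 27 higher and 9 lower (8 and 9 under each scaling): Zfp36, which destabilises cytokine transcripts, was at -1.93 in the fibroblasts and 2.96 in the hepatocytes, 29.7-fold higher, and Jun 4.77-fold higher, whereas Fosl1 was 9.53-fold lower and Klf6 8.43-fold lower. The counts of these stress and immediate early lists, and of interferon-stimulated genes below, stand beside the shares over all genes given above. No difference of these lists is read from them. Cytokine and chemokine genes went both ways, 14 of 33 higher and 12 lower (11 and 12 under each scaling). Il1b was at -8.37 in the fibroblasts, not well above background, and 3.17 in the hepatocytes, at least 709.6-fold higher, and Cxcl1 22.1-fold higher, while Ccl11, eotaxin, was at 1.57 in the fibroblasts and -4.59 in the hepatocytes, 71.5-fold lower. Interferon-stimulated genes had 6 of 30 higher and 8 lower (5 and 7 under each scaling), and MHC class I genes 11 of 19 higher and 0 lower (10 and 0 under each scaling), with the liver-secreted class I gene H2-Q10 17.8-fold higher by its brightest probe (10.69 on the log2 scale by another).

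Transcripts of other cell types were then read by 28 marker lists. Over all genes 30.9% were higher and 25.4% lower (17.4% and 24.5% under each scaling). Of 20536 genes read on both arrays, 17348 were above background in the hepatocytes, 16327 in the hepatocyte-like cells and 14969 in the fibroblasts. The counts of list members above background below stand beside these. The endothelial lists were higher in the hepatocyte pool, pan-endothelial 21 of 23 higher and 0 lower (20 and 0 under each scaling) and sinusoidal 16 of 18 higher and 0 lower (15 and 0 under each scaling), with medians of 4.31 and 4.60 (3.61 and 3.30 under normexp). Cdh5, the cadherin of all endothelium, was at -6.67 in the fibroblasts, not well above background, and 3.19 in the hepatocytes, at least 722-fold higher, and the sinusoidal scavenger receptor gene Stab2 was at -2.88 in the fibroblasts and 4.42 in the hepatocytes, 157-fold higher. Clec4g and Lyve1, also sinusoidal, were 1389-fold higher and 155-fold higher. All 23 measured pan-endothelial genes were above background in the hepatocyte pool and 15 in the fibroblasts, and their signals summed to 116 and 6.92 times the array's 75th percentile. The part of such cells in the hepatocyte values was not tested.

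Resident macrophages of the liver were read in the hepatocyte pool as well. Of Kupffer cell genes, a list that shares Cdh5 with endothelium, 11 of 12 were higher and 0 lower (9 and 0 under each scaling), with a median of 3.22; all 12 were above background in the hepatocyte pool and 7 in the fibroblasts, their signals summing to 121 and 21.2. Clec4f, which marks Kupffer cells in mice, was at -8.39 in the fibroblasts, not well above background, and 3.01 in the hepatocytes, at least 636-fold higher, Timd4, a receptor for dying cells, was at -8.51 in the fibroblasts, not well above background, and -0.07 in the hepatocytes, at least 75.1-fold higher, and Vsig4, a complement receptor, was at -4.29 in the fibroblasts and 2.60 in the hepatocytes, 119-fold higher. General macrophage genes did not separate the pools, 5 of 25 higher and 6 lower (4 and 4 under each scaling). The complement gene C1qc was at 4.81 and 4.76, Adgre1, the antigen F4/80, at 2.99 and 2.54, and Ctss, cathepsin S, at 4.69 and 4.44. In the hepatocyte-like cells the same genes read -8.00, -9.47 and -6.26. All 3 thus read far lower in the other cultured pool. The summed signal of the list was 226 in the fibroblasts, 24.8 in the hepatocyte-like cells and 258 in the hepatocytes.

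Of the general macrophage genes, Gpnmb, Ms4a7, Trem2 and Lyz2 were lower and Mrc1, Mertk, Csf1r and Apoe higher in the hepatocyte pool under each scaling. Gpnmb, a glycoprotein of phagocytes, was at 4.72 in the fibroblasts and -2.04 in the hepatocytes, 108-fold lower, Ms4a7 was at 2.49 in the fibroblasts and -2.91 in the hepatocytes, 42.2-fold lower, and Trem2, a lipid receptor of tissue macrophages, was at 4.55 in the fibroblasts and 0.53 in the hepatocytes, 16.2-fold lower. Red pulp macrophage genes, which clear red cells in the spleen, had 3 of 10 higher and 2 lower (1 and 2 under each scaling), with their defining factor Spic at -2.81 and -2.01. Each of these counts was a smaller share than that over all genes. Osteoclast and giant cell genes had 5 of 9 higher and 2 lower (3 and 2 under each scaling): Acp5 was 16.5-fold higher, while Ctsk and Atp6v0d2 were 70.6-fold lower and 9.20-fold lower. The part of macrophages in the fibroblast values was not tested.

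Blood cell markers were higher in the hepatocyte pool, with calls that depended on scaling. Neutrophil and monocyte genes had 13 of 16 higher and 1 lower (10 and 1 under each scaling), T and NK cell genes 17 of 21 higher and 1 lower (12 and 1 under each scaling), B and plasma cell genes 10 of 14 higher and 1 lower (6 and 1 under each scaling) and dendritic cell genes 10 of 13 higher and 0 lower (8 and 0 under each scaling). Medians were 3.5, 3.55, 2.31 and 3.23, and 1.26, 1.31, 0.75 and 1.38 under normexp. S100a9, a neutrophil protein, was at -8.55 in the fibroblasts, not well above background, and 4.12 in the hepatocytes, at least 1377-fold higher, and Cd3e, a subunit of the T cell receptor complex, was at -0.99 in the fibroblasts and 3.36 in the hepatocytes, 20.3-fold higher. Cd3d and Cd3g, of the same complex, were dimmer in the hepatocytes, at -3.45 and -2.15, at least 7.24-fold higher and at least 17.8-fold higher. Cd28 was at -1.60 and -2.14, and Il7r was 2.15-fold lower. Cd79b, of the B cell receptor, was 51.6-fold higher, and the MHC class II chain gene H2-Ab1 40.8-fold higher. The general leukocyte gene Ptprc was at -1.96 and -1.81. Platelet and mast cell lists had 6 of 13 higher and 1 lower (3 and 1 under each scaling) and 6 of 8 higher and 1 lower (3 and 1 under each scaling). All 21 measured T and NK genes were above background in the hepatocyte pool and 11 in the fibroblasts, their signals summing to 72.1 and 3.52, and for neutrophil genes these were 16 and 9 of 16, summing to 95.7 and 32.1. The part of blood cells in these values was not tested.

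Globin transcripts were present in the hepatocyte pool although the protocol lysed red cells and removed globin RNA. Hba-a1 was at -4.99 in the fibroblasts and 3.81 in the hepatocytes, 447-fold higher, Hba-a2 was at -3.19 in the fibroblasts and 5.87 in the hepatocytes, 533-fold higher, and Hbb-bt was at -8.57 in the fibroblasts, not well above background, and 4.92 in the hepatocytes, at least 2395-fold higher. Alas2, the heme enzyme of red cells, was at least 354-fold higher. The erythroid list had 14 of 22 higher and 3 lower (9 and 3 under each scaling), its summed signal being 192 against 31.5 in the fibroblasts. In the hepatocytes and fibroblasts 21 and 15 of its 25 genes were above background, beside 17348 and 14969 of 20536 over all genes. The hepatocyte count was thus near the share over all genes.

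Of the 28 lists, pancreatic acinar genes had the largest median difference. All 36 were at least 2-fold higher under each scaling, 35 of them at least 8-fold, with a median of 9.75 (7.72 under normexp). Pnlip, pancreatic lipase, was at -6.63 in the fibroblasts, not well above background, and 6.56 in the hepatocytes, at least 7436-fold higher. Cpa1, a carboxypeptidase, was at -6.35 in the fibroblasts, not well above background, and 5.53 in the hepatocytes, at least 3657-fold higher, the chymotrypsinogen gene Ctrb1 was at -2.91 in the fibroblasts and 6.14 in the hepatocytes, 532-fold higher, and Zg16, of the zymogen granule, at least 2056-fold higher. The acinar transcription factor genes Ptf1a, Bhlha15 and Rbpjl were at least 20.0-fold higher, at least 70.3-fold higher and 6.98-fold higher. The reading therefore covered enzymes, granule proteins, regulators and Reg1, a gene of pancreatic injury, at least 3199-fold higher. Reg3b, also a Reg gene but a member of the intestinal list and not of this one, was at least 2085-fold higher. All 36 acinar genes were above background in the hepatocytes, 28 in the hepatocyte-like cells and 13 in the fibroblasts. Over all genes these were 17348, 16327 and 14969 of 20536, so the count in the hepatocyte-like cells was near the share over all genes. The list's summed signal was 1027 in the hepatocytes, 0.922 in the fibroblasts and 2.81 in the hepatocyte-like cells.

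Islet genes differed less. Of the islet list 12 of 18 were higher and 1 lower (4 and 1 under each scaling); Ins1 and Ins2, the insulin genes, were at -4.69 in the fibroblasts and -0.98 in the hepatocytes, 13.1-fold higher, and at -1.79 in the fibroblasts and 1.90 in the hepatocytes, 12.9-fold higher, respectively, and Gcg, glucagon, was above background in the hepatocyte pool alone, at -4.20. The islet list also holds Ttr, which hepatocytes make, and liver also expresses Amy1, Spink1 and Nr5a2 of the acinar list. Neurod1, Pcsk1 and Slc30a8 of the islet list were not above background on either array. What part other cells had in the hepatocyte pool's RNA was not tested.

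Other liver cell types were read next. Stellate cell genes had 12 of 19 higher and 5 lower (7 and 5 under each scaling), and their median of 1.74 was 0.37 with normexp; the retinol storage enzyme gene Lrat was at -8.54 in the fibroblasts, not well above background, and 0.02 in the hepatocytes, at least 80.0-fold higher, and Colec10 and Colec11 were at least 110.1-fold higher and 43.4-fold higher, while desmin (Des) and Cygb were 16.7-fold lower and 8.88-fold lower. Bile duct genes had 13 of 21 higher and 6 lower (6 and 6 under each scaling): Krt19, their keratin, was at -1.51 and -1.48, Spp1 was 6.20-fold lower, and Sctr, the secretin receptor, 71.9-fold higher. Mesothelial genes had 3 of 12 higher and 3 lower (3 and 3 under each scaling), with Msln, mesothelin, at 1.21 and 2.36. Pericyte genes had 6 of 13 higher and 5 lower (5 and 5 under each scaling) and lymphatic endothelial genes 5 of 7 higher and 1 lower (3 and 1 under each scaling), whose median of 2.94 was -0.29 in the authors' deposited values.

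Lists of other organs were read last. Kidney tubule genes had 9 of 14 higher and 2 lower (1 and 2 under each scaling), and the 1 called higher under each scaling was Pax2, at -4.29 in the fibroblasts and 5.96 in the hepatocytes, 1219-fold higher; Slc12a1 was not above background on either array. Lung epithelial genes had 6 of 9 higher and 0 lower (1 and 0 under each scaling), with the surfactant gene Sftpd 66.0-fold higher and Sftpc not above background. Intestinal and stomach lists had 11 of 17 higher and 2 lower (6 and 1 under each scaling) and 5 of 7 higher and 0 lower (3 and 0 under each scaling), and share Zg16 and Tff2 with the acinar list. Fat cell genes had 8 of 14 higher and 3 lower (2 and 3 under each scaling), with Car3, a carbonic anhydrase of liver and fat, at -7.28 in the fibroblasts, not well above background, and 5.71 in the hepatocytes, at least 4127-fold higher, and Adipoq, adiponectin, at -4.11 in the hepatocytes. Neuronal, muscle and adrenal or gonadal lists had 6 of 16 higher and 5 lower (3 and 5 under each scaling), 4 of 15 higher and 5 lower (1 and 5 under each scaling) and 5 of 9 higher and 4 lower (3 and 4 under each scaling); Tubb3 was 125-fold lower, and the last list's median of 1.22 was -0.23 under normexp. The neuronal median of 0.45 turned to -0.08 with quantile normalization, -0.06 with normexp and -0.18 in the authors' deposited values.

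**Figure D5:**
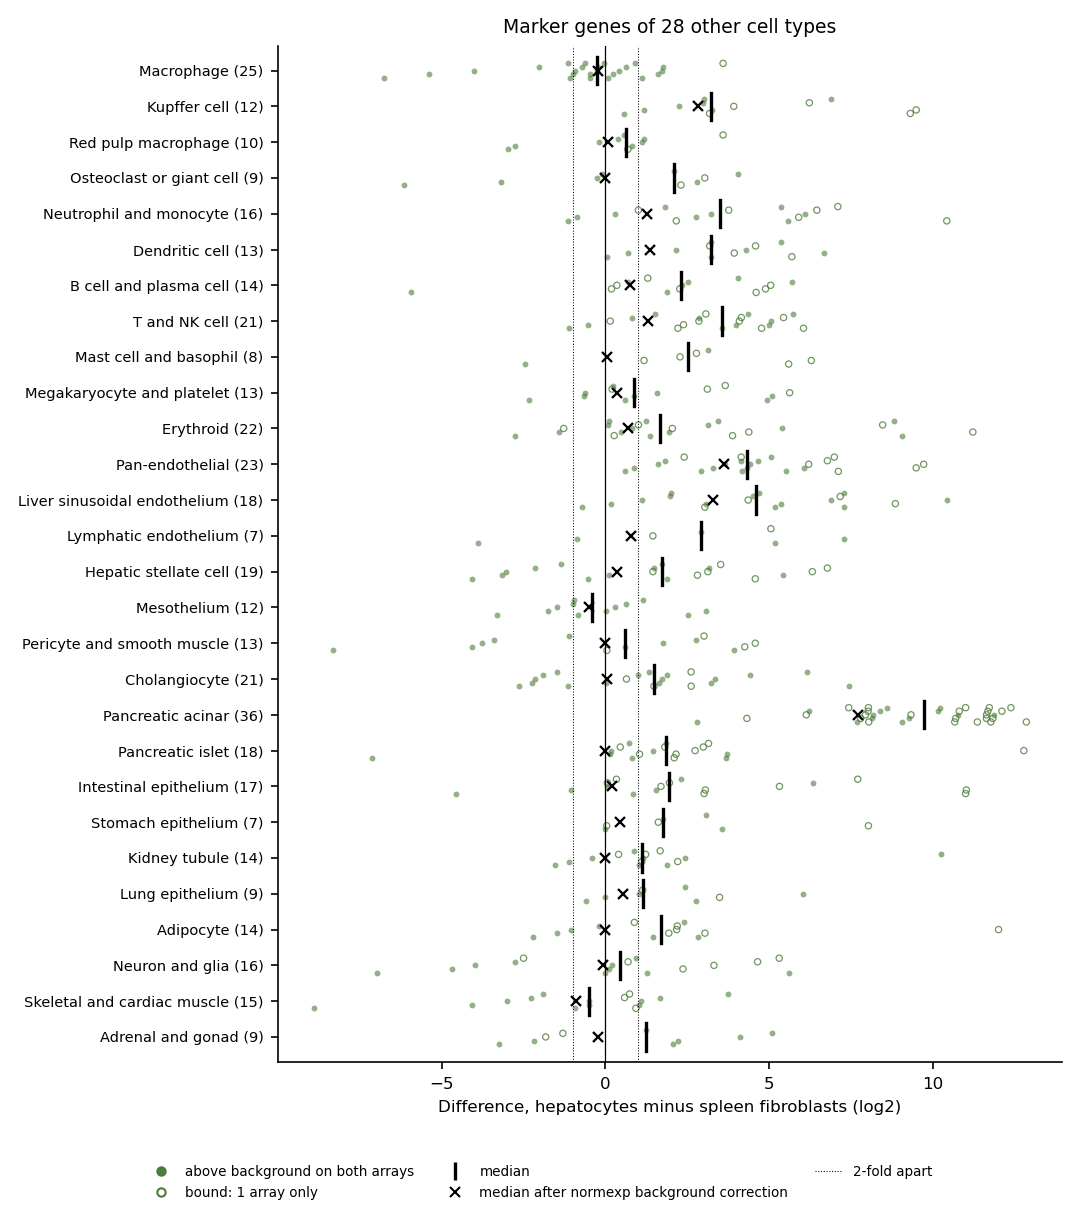
Difference in level, hepatocytes minus fibroblasts (log2), for marker genes of 28 other cell types (number of compared genes in brackets); open points are bounds, the bar is the median, the cross the median after normexp background correction, and dotted lines mark 2-fold. Acinar genes lie farthest right by median, and general macrophage genes centre near 0. The pan-endothelial, sinusoidal, Kupffer, neutrophil, dendritic and T and NK cell medians also stay right of 2-fold under normexp, and the lymphatic endothelial median does not.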

How the data were processed

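RNA of each pool was hybridised to a one-colour mouse array, and the deposited files hold each spot's intensity, background-subtracted and detrended within the array by Agilent Feature Extraction 11.0.1.1, per the file headers (the submitters' processing notes name version 9.1). Control and outlier spots were left out, spots of a probe averaged, log2 taken and the array's 75th percentile subtracted. The authors' deposited table holds log2 values whose scaling between arrays is not given in the sources used here; it served as an alternative. Probes were named through RefSeq accessions of GRCm38.p6 (27234 of 39429 probes), and a gene was read from its probe with the highest mean level. For a side not above background the array's detection floor, the dimmest probe still well above background (-6.30 in the fibroblasts, -6.89 in the hepatocytes), or the probe's own value if higher, stood in. Normexp (offset 50) used the raw median signal, since no mean signal is in the files. Alternatives were quantile normalization, normexp, scaling to the median of bright probes, the authors' values, filters on dim probes, the mean of probes, a common floor and another fold; requiring 2-fold under each of 3 scalings was chosen after seeing the data. With 1 array a group no test was run, and precision is limited by that number of arrays. The step that counts and summarises differences was tested on simulated data. R 4.3.3, limma 3.58.1, Python 3.11.15 and pandas 2.3.3 were used.

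The members, the 81 gene lists and the tests were chosen with earlier results of these data known. Named genes were anchors (classical markers of each side), the 10 highest and 10 lowest differences, the 10 largest bounds each way, and, of each list, up to 4 members in its main direction, up to 2 in the other, the member nearest no difference and the defining markers; the text gives a selection of them. Promoters were those of anchors at least 8-fold apart that hold a motif, none on chromosome 18. Genes named outside that rule were chosen after their values were seen: Acadvl, Acsl1, Acsl4, Apoa2, Arg2, Atf5, Bhlha15, C1ra, C1s1, C3, C4b, Ccl19, Cebpb, Col4a1, Ctss, Cyp2b9, Dcn, Foxa1, Foxa2, Foxa3, Fth1, Gcgr, Gnmt, Gys1, Igf1, Kdm5d, Mertk, Mfge8, Mt1, Mup20, Nr1h4, Nr1i2, Nr1i3, Pklr, Ppara, Ptf1a, Reg1, Selenop, Sfrp1, Slc10a2, Slc2a1, Slc2a2, Slco1a1, Slco1a4, Slco1b2, Tead1, Tead2 and Tead3. Some genes that the rule names are not reported here.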

Additional observations from a re-analysis of the deposited data

Results flagged for a closer look

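Of the probes that could not be given a gene name here, 12195 in all, 9010 were well above background on the fibroblast or the hepatocyte array. Among them 836 were at least 8-fold higher in hepatocytes and 199 at least 8-fold lower. These probes enter none of the comparisons by gene, and what transcripts they read was not tested.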

How the results depend on the processing

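No paired analysis was possible because each group had 1 array, and leaving out a replicate was not possible for the same reason. For the 5464 genes at least 2-fold higher in hepatocytes, the count was 3178 with normexp, 2968 in the authors' deposited values, 3071 under each of the 3 scalings and 3263 at 4-fold. For the 1911 at least 8-fold higher these were 1064, 1099, 1019 and 3263, and 1228 where only genes above background on both arrays were used. The counts of genes lower in hepatocytes moved by over 1.5 times only with the threshold, to 1981 at 4-fold. In all, 29 of 40 alternatives for these counts stayed within 1.5 times.

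Median differences of at least 1 in size turned in 6 of 478 alternatives. Osteoclast (-0.11), stellate cell (-0.22) and adipocyte genes (-0.19) did so with genes above background on both arrays only, lymphatic genes (-0.29) in the authors' values, and adrenal and gonad genes with normexp (-0.23) and with the mean of probes (-0.28). Beyond these turns, medians moved by at least the between-probe SD of 1.11 in 65 of 646 alternatives, 34 of them with normexp. With normexp the median of plasma carriers went from 10.21 to 7.53 and that of coagulation genes from 9.48 to 7.29.

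Single genes at least 2-fold apart turned in 14 of 3711 alternatives. With normexp these were Cd79a (-0.45), Col27a1 (-0.036), Col9a1 (-0.61), Col9a2 (-0.19), Nppa (-0.34), Slc34a1 (-0.75), Sry (-0.73), Star (-0.23) and Synpo2 (-0.50). With the mean of probes they were Star (-0.28), Synpo2 (-1.40), Tpx2 (0.95) and Vcan (-1.28), and Tpx2 was at 5.33 in the authors' values. Beyond these turns, differences of single genes moved by at least 1.11 in 394 of 4471 alternatives. With normexp 239 moved and 9 turned, so the fold sizes given above depend on background correction. The cause was not tested. Signal over background limits what can be said of dim genes, whose differences are bounds, and 43.7% of genes lay within 2-fold.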
